A study of Homo sapiens with 6 samples.

Results

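CUL9, the other cullins and the RING proteins that work with them were followed in HEK-293T cells, a line derived from human embryonic kidney that expresses SV40 large T antigen. The 10 genes were CUL9, chosen because it was strongly and evenly lower in the knockout libraries of these same data, and CUL1, CUL2, CUL3, CUL4A, CUL4B, CUL5, CUL7, RBX1 and RNF7, chosen by family name. They are 10 of the 62348 identifiers in the gene count tables, and all 10 had enough counts to be tested. Poly(A)-selected RNA was sequenced from 3 wild-type (WT) libraries, which carried a non-targeting guide RNA, and from 3 libraries that the labels call C17orf80 knockout, which carried a guide RNA against C17orf80 and, per the labels, came from Cas9-edited cells selected with puromycin as a monoclonal line. Both groups share the cell line and the culture medium. The sources used here do not state how many clones were used or whether cultures were separate, so clone and guide cannot be told apart, and the p-values reflect spread among these libraries only, possibly technical.

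Cullins are the scaffolds of the largest family of ubiquitin ligases. The C-terminal end of a cullin holds a RING protein, RBX1 or RNF7, which recruits the ubiquitin-carrying E2 enzyme, and the N-terminal end holds an adaptor and a receptor that picks the protein to be marked. Attachment of the ubiquitin-like protein NEDD8 switches these ligases on, the COP9 signalosome removes it, and CAND1 exchanges the receptors. CUL7 and CUL9 form a branch of their own: CUL7 works with the F-box protein FBXW8 and with OBSL1 and CCDC8 in the 3M complex, while CUL9, also called PARC, carries a second ligase module of the RING-between-RING kind. CUL7 is a known binding partner of the large T antigen that HEK-293T cells express.

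Gene counts per library ranged from 14982340 to 16278091. Knockout-labelled replicate 1 stood apart: its Pearson's r with replicates 2 and 3 of its group, over genes in log2 CPM, was 0.932 and 0.945, against 0.987 between those 2, and 15.9% of its reads fell in no annotated feature, against 8.75% to 10.8% in the other libraries. Fitted changes of the 10 members are therefore given with and without it. Results for other genes and lists are given without it only in places. C17orf80, the gene named in the labels, was higher in the knockout-labelled libraries, at 46.9 ± 8.22 CPM against 27.3 ± 1.72 CPM in WT (SD, n = 3). Its protein and the edited site were not examined here, so its RNA level does not decide whether it was knocked out. The group is therefore named by its label. Of 5 markers of the line, VIM, NEFL, NEFM and PAX2 were measured in each library and LHX1 was too low to test; the 5 summed to 540.4 to 571 CPM in WT and 407 to 514 CPM in the knockout-labelled libraries. NEFL fell, from 195 ± 5.69 to 69.9 ± 13.5 CPM (edgeR adjusted p = 0.00252), and VIM, NEFM and PAX2 did not pass. The 10 markers of blood, fibroblast and liver cells summed to 46.7 to 52.6 CPM and 25.8 to 37.9 CPM, mostly from COL1A1, which fell (log2 fold change -0.82, edgeR adjusted p = 0.0350), while LUM rose from 1.70 to 4.11 CPM (edgeR adjusted p = 0.0455), with PTPRC, CD3E and COL1A2 at 0 counts throughout; their part in the results was not tested.

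CUL9 (ENSG00000112659, chromosome 6, positions 43182196 to 43224587, GRCh38) was reduced to a small remainder in each knockout-labelled library. Its level, in TMM-scaled CPM (gene counts relative to library depth), was 51.6, 59.7 and 53.4 in WT replicates 1 to 3 and 3.77, 3.22 and 4.03 in the knockout-labelled replicates 1 to 3. The groups lie far apart, and knockout-labelled replicate 1 sits between its 2 partners. That evenness was part of why CUL9 was chosen, so it does not set CUL9 apart from the other members. The means were 54.9 ± 4.30 CPM in WT against 3.67 ± 0.414 CPM in the knockout-labelled libraries (SD, n = 3), a 14.9-fold lower level. The counts behind these values were 793, 1006 and 871 in WT and 51, 53 and 67 in the knockout-labelled libraries, so the transcript remained measurable. In bulk RNA, fewer cells with the transcript and less transcript per cell cannot be told apart. The fitted log2 fold change, knockout-labelled over WT, was -3.90 ± 0.17 (SE), and -3.91 ± 0.14 without replicate 1. Because this fall is why CUL9 was chosen, it is described here without a test. Among 17452 tested genes, 73 had a lower log2 fold change.

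The RefSeq window from 250 bases before to 50 bases after the annotated start of CUL9 (chr6:43181946-43182245, plus strand, GRCh38.p14) is shown because this is the gene on which the results turn. Its capitals mark matches, on either strand, to the GC box GGGCGG and to the ETS core CCGGAA.
CUL9 promoter: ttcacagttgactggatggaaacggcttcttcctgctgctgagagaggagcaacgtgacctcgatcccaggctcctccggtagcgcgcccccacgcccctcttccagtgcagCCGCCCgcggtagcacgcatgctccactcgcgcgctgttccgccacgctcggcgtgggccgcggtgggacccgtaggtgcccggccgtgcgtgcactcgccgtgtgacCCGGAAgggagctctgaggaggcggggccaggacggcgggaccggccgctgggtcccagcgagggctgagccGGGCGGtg
The window holds 2 GC boxes and 1 ETS core. It also holds 35 CG dinucleotides, against a median of 14 over 35116 RefSeq promoter windows of the same length; 85.9% of those windows hold fewer. A GC box occurs in 45% of all windows and an ETS core in 17.2%. Among the 9 members with an entry (all but CUL7), 9 had a GC box in at least 1 of their windows and 6 had an ETS core; counted the same way, 48.3% and 20.1% of 27305 genes did. Methylation and factor binding at the promoter were not measured in these libraries, and a match in the letters is a description only.

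**Figure D1:**
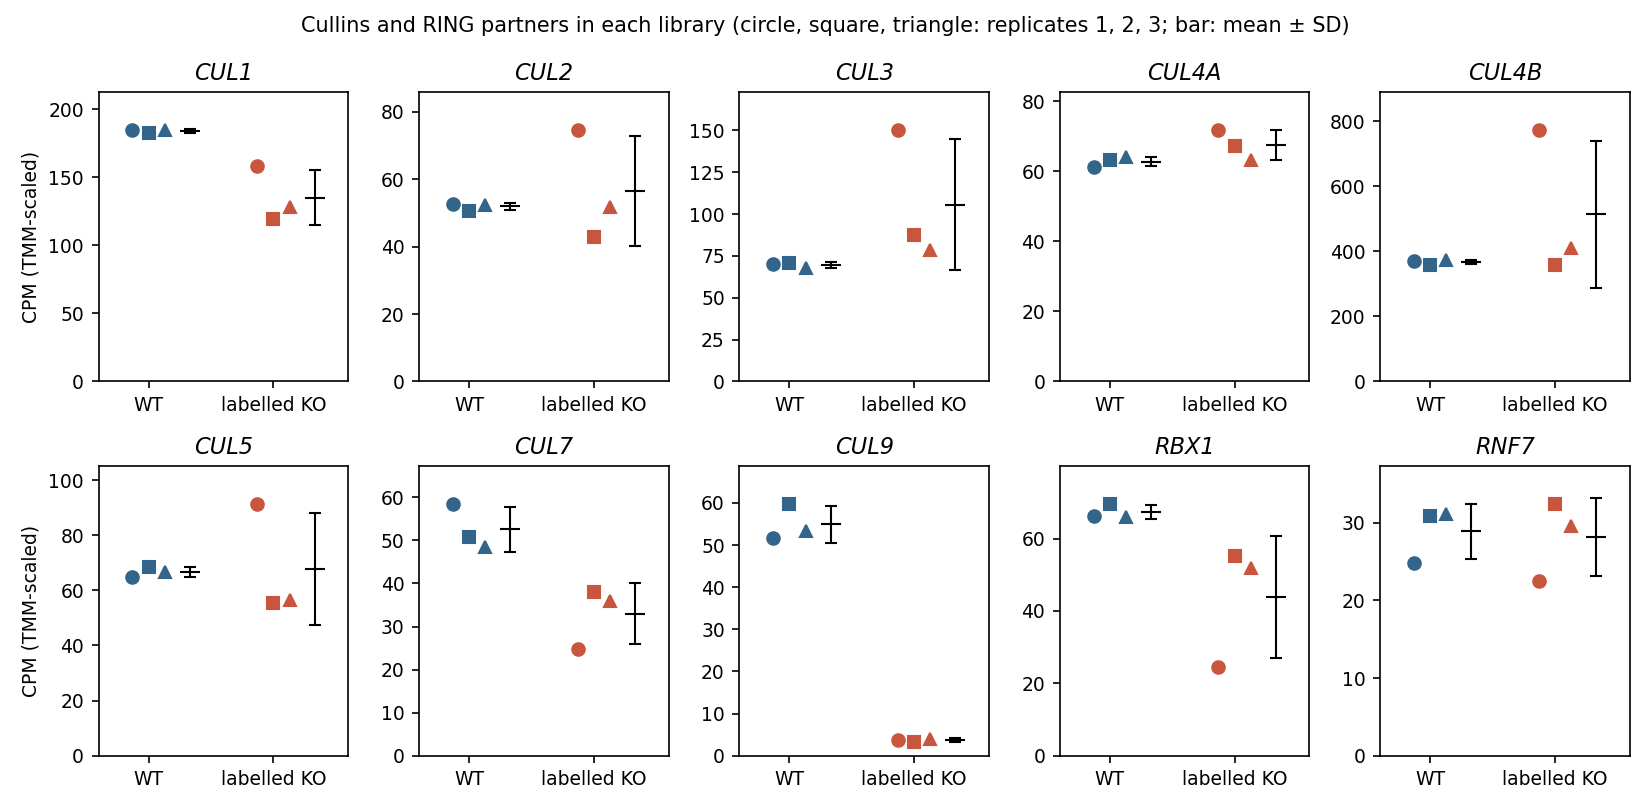
TMM-scaled CPM (vertical axis, from 0, separate scale per gene) of the 10 genes in the 3 WT and 3 knockout-labelled libraries, with a symbol per replicate and the mean ± SD beside each group. CUL9 lies between 3.22 and 4.03 CPM in the knockout-labelled libraries, against 51.6 to 59.7 CPM in WT, and knockout-labelled replicate 1 (circle) is the library farthest from its partners for CUL3, CUL4B and RBX1.

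The paralog CUL7, named with CUL9 for a possible compensating rise, did not rise in these libraries. CUL7 (ENSG00000044090, chromosome 6, positions 43037617 to 43053851) was at 58.5, 50.9 and 48.4 CPM in WT and at 24.8, 38.1 and 36.0 CPM in the knockout-labelled replicates 1 to 3. The 3 knockout-labelled values were all below the 3 WT values. The means were 52.6 ± 5.24 and 32.99 ± 7.13 CPM (SD, n = 3). The log2 fold change was -0.67 ± 0.20, with a 95% interval from -1.13 to -0.21 that lies wholly below 0, yet CUL7 did not pass the test once adjusted over all genes (edgeR quasi-likelihood adjusted p = 0.0591). DESeq2 gave -0.66 with an adjusted p of 0.0174. Without knockout-labelled replicate 1 CUL7 fell by 0.50 on the log2 scale (edgeR adjusted p = 0.000141; interval -0.69 to -0.30).

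Counts of CUL7 and CUL9 together show how the balance within the pair shifted. CUL9 held 46.9%, 54.0% and 52.4% of the summed counts of the pair in WT replicates 1 to 3, with exact 95% binomial intervals from 44.5% to 49.3%, from 51.7% to 56.3% and from 50.004% to 54.9%. In the knockout-labelled replicates 1 to 3 it held 13.2%, 7.78% and 10.1%, with intervals from 9.97% to 16.96%, from 5.88% to 10.1% and from 7.88% to 12.6%. These intervals cover counting error only. CUL7 thus had 9.13 ± 2.64 counts per CUL9 count in the knockout-labelled libraries and 0.964 ± 0.149 in WT (SD, n = 3). These ratios contain CUL9 and describe its fall; since no transcript lengths were used, they compare libraries, not the abundance of the 2 transcripts.

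Of the 9 members other than CUL9, edgeR over all 6 libraries called 0 higher and 0 lower, where 8.64% of all tested genes were called higher and 6.5% lower. Before adjustment, at p under 0.05, the same edgeR fit gave 1 higher (CUL3) and 2 lower (CUL1 and CUL7). For these and the later unadjusted counts, including those of the neighbours, the share of all tested genes was not computed. Such counts are therefore not compared with the whole table. After adjustment DESeq2 gave 0 higher and 1 lower, and limma-voom 0 and 0. For these and all later counts, DESeq2 called 24.1% of all tested genes and limma-voom 15.1%. The 9 had a median log2 fold change of 0.023, against 0.0055 over all tested genes. Without knockout-labelled replicate 1 the median of the 9 turned to -0.12, against 0.0062 over all tested genes. By overlap alone, 1 member (CUL3) was higher and 3 members (CUL1, CUL7 and RBX1) were lower in every knockout-labelled library than in any WT library, against 23.5% and 24.1% of all tested genes. Without knockout-labelled replicate 1, CUL3 was called higher and CUL1, CUL5, CUL7 and RBX1 lower, in a fit that called 22.3% of genes higher and 21.7% lower.

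**Figure D2:**
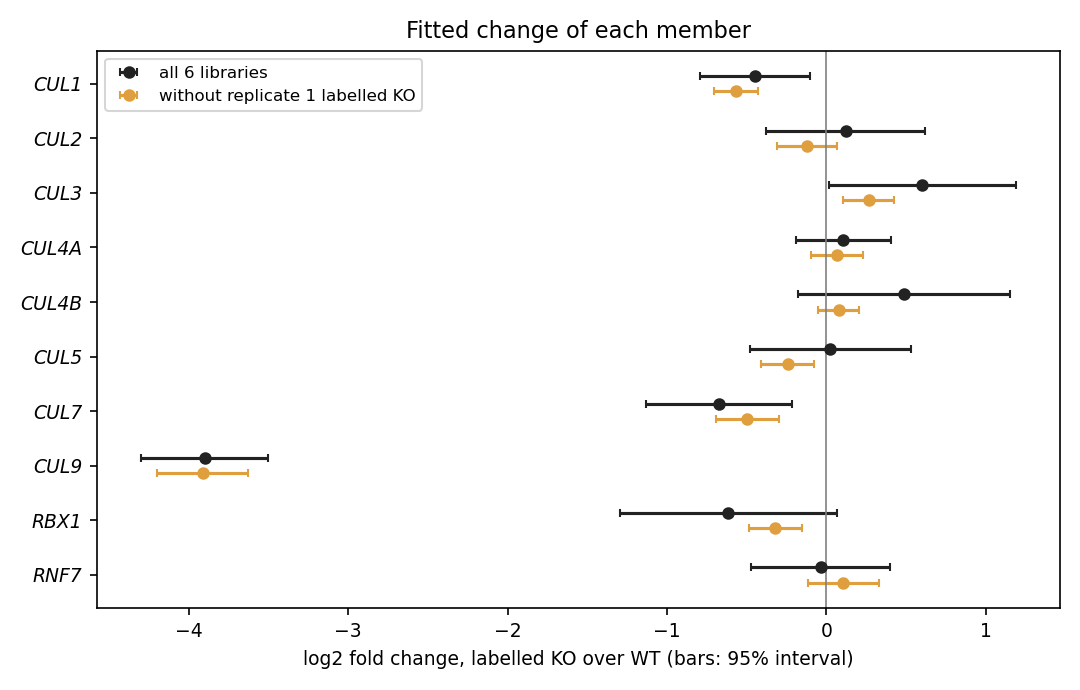
Fitted log2 fold change, knockout-labelled over WT, with 95% intervals (horizontal axis) for each member (rows), over all 6 libraries in black and without knockout-labelled replicate 1 in yellow. CUL9 is at -3.90 in black and -3.91 in yellow, while the other 9 lie between -0.67 and 0.60 in black and the yellow intervals are narrower.

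CUL1, the scaffold of the SCF ligases that use F-box receptors in cell-cycle control, was at 185, 183 and 185.0 CPM in WT and at 158, 119 and 128 CPM in the knockout-labelled replicates 1 to 3. Its values in the knockout-labelled libraries were all below WT, with replicate 1 the nearest to it. The fitted change of CUL1 was -0.45 ± 0.15 in log2 (edgeR adjusted p = 0.0834; interval -0.79 to -0.10). Without knockout-labelled replicate 1 CUL1 fell by 0.57 on the log2 scale (edgeR adjusted p = 2.16e-07).

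CUL3, which binds receptors with a BTB domain directly, without a separate adaptor, was at 70.1, 70.7 and 67.7 CPM in WT and at 150.4, 87.5 and 78.7 CPM in the knockout-labelled replicates 1 to 3. All 3 knockout-labelled libraries were above WT, replicate 1 by far the most. The fitted change of CUL3 was 0.60 ± 0.25 in log2 (edgeR adjusted p = 0.143; interval 0.015 to 1.19). Without replicate 1 CUL3 rose by 0.27 (edgeR adjusted p = 0.00681); the knockout-labelled mean was then 83.1 CPM in place of 105.5 CPM.

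The paralogs CUL4A and CUL4B, which hold receptors through DDB1 in DNA repair and replication licensing, overlapped between groups. CUL4A was at 61.3, 63.2 and 64.0 CPM in WT and at 71.9, 67.4 and 63.3 CPM in the knockout-labelled replicates 1 to 3. Its fitted change was 0.10 ± 0.13 in log2 (edgeR adjusted p = 0.593; interval -0.19 to 0.40), and 0.065 without replicate 1. CUL4B, on the X chromosome, was at 369.7, 359 and 373 CPM in WT and at 774, 358 and 412 CPM in the knockout-labelled replicates 1 to 3. Replicate 1 alone was far above WT, and replicate 2 was just below all 3 WT libraries. The fitted change of CUL4B was 0.49 ± 0.28 in log2 (edgeR adjusted p = 0.270, interval -0.18 to 1.153). Without replicate 1 it was 0.076 (edgeR adjusted p = 0.356). There were 10.8 CUL4B counts per CUL4A count in knockout-labelled replicate 1, 5.31 and 6.50 in replicates 2 and 3, and 5.68 to 6.04 in WT.

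CUL2 and CUL5 share the elongin adaptors; CUL2 carries the VHL tumour suppressor as a receptor and CUL5 the SOCS proteins of cytokine signalling. CUL2 was at 52.7, 50.7 and 52.4 CPM in WT and at 74.7, 42.9 and 51.9 CPM in the knockout-labelled replicates 1 to 3. Replicate 1 was above WT, replicate 2 below it, and replicate 3 within it. The log2 fold change of CUL2 was 0.12 ± 0.21 (edgeR adjusted p = 0.719; interval -0.38 to 0.62) and turned to -0.12 without replicate 1 (edgeR adjusted p = 0.294). CUL5 was at 64.7, 68.5 and 66.7 CPM in WT and at 91.3, 55.4 and 56.5 CPM in the knockout-labelled replicates 1 to 3. Here too replicate 1 lay above WT, while both of its partners lay below. The log2 fold change of CUL5 was 0.023 ± 0.22 (edgeR adjusted p = 0.950; interval -0.48 to 0.53), and without replicate 1 CUL5 fell by 0.24 (edgeR adjusted p = 0.0152).

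Of the RING partners, RBX1, which serves most cullins, was at 66.2, 69.5 and 66.0 CPM in WT and at 24.5, 55.1 and 51.9 CPM in the knockout-labelled replicates 1 to 3. All 3 were below WT, with replicate 1 lowest. The fitted change of RBX1 was -0.62 ± 0.29 in log2 (edgeR adjusted p = 0.184; interval -1.30 to 0.065). Without replicate 1 RBX1 fell by 0.32 on the log2 scale (edgeR adjusted p = 0.00209). RNF7, the partner of CUL5, was at 24.8, 30.8 and 31.1 CPM in WT and at 22.6, 32.4 and 29.5 CPM in the knockout-labelled replicates 1 to 3, and the groups overlapped. Its fitted change was -0.036 ± 0.19 in log2 (edgeR adjusted p = 0.908; interval -0.47 to 0.40), and 0.11 without replicate 1.

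The annotated spans of CUL2 and CREM overlap, as do those of CUL4A and PCID2, and that of CUL7 overlaps a lncRNA gene. The span of CUL3 overlaps a pseudogene, that of CUL4B a snoRNA gene, and those of CUL2 and CUL4A each also a miRNA gene. Strand was not stated for the counts, so reads in these overlaps cannot be assigned with certainty.

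The members differed in how far knockout-labelled replicate 1 stood from its partners, and the 3 members of shortest genomic span were the 3 that were lower in it. In log2 CPM, knockout-labelled replicate 1 minus the mean of replicates 2 and 3 was -0.45 for RNF7 (span 9.26 kb), -0.57 for CUL7 (16.2 kb) and -1.12 for RBX1 (21.9 kb). CUL9 (42.4 kb) was at 0.065. CUL4A (58.9 kb) was at 0.14, CUL1 (103 kb) at 0.36, CUL2 (118 kb) at 0.66, CUL5 (98.9 kb) at 0.71 and CUL3 (115 kb) at 0.86. CUL4B had the highest difference, 1.01, with a span of 51.7 kb, shorter than that of CUL4A. Across the 10 members this difference and the log2 span had a Pearson's r of 0.80 (Spearman's rho 0.71), and across 15099 tested genes with a RefSeq span the values were 0.43 and 0.47; genes of 1 library are not independent. Over all genes the median difference was -0.51 for 7032 genes under 25 kb and 0.064 for 2928 genes of 25 to 50 kb. CUL9 falls in the latter class, near its median. The median was 0.33 for 2395 genes of 50 to 100 kb and 0.51 for 2744 genes of 100 kb and over. The part of this pattern in the results above was not tested.

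**Figure D3:**
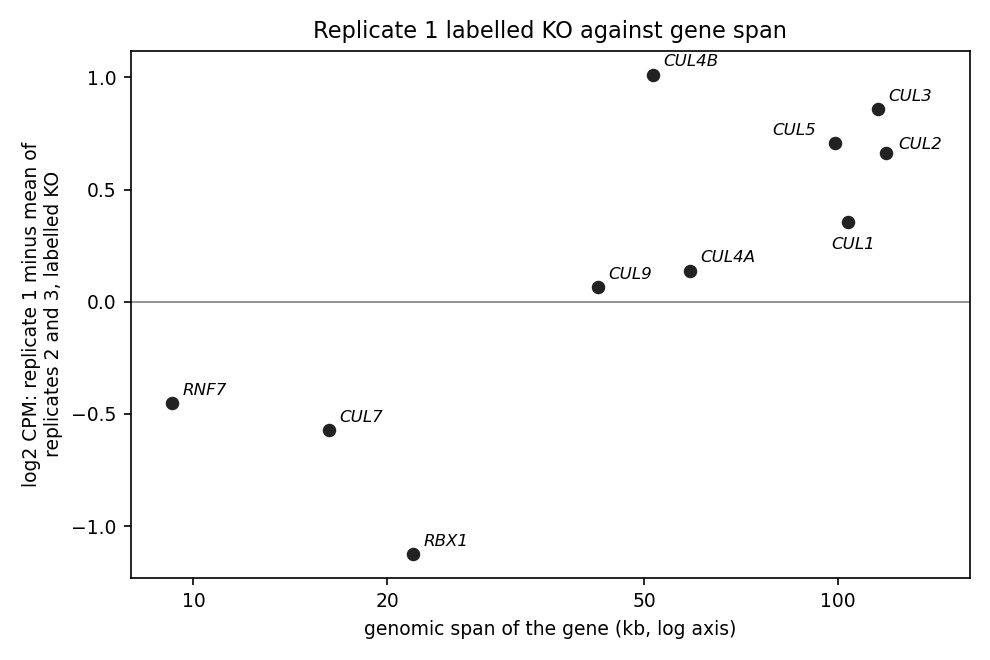
Log2 CPM of replicate 1 minus the mean of replicates 2 and 3, all knockout-labelled (vertical axis), against the genomic span of each of the 10 genes in kb (horizontal log axis), a point per gene. RNF7, CUL7 and RBX1, the genes of shortest span, lie below 0, CUL9 lies at 0.065, and CUL4B is the highest at 1.01.

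CUL7 and CUL9 lie on the same stretch of chromosome 6, with 128.3 kb and 4 protein-coding genes (MRPL2, KLC4, PTK7 and SRF) between them. Of 16 other tested protein-coding genes that start within 250 kb of either gene, edgeR over all libraries called 0 higher and 1 lower (background 8.64% and 6.5%), with a median log2 fold change of -0.35; before adjustment at p under 0.05 it gave 0 and 3, DESeq2 gave 0 and 2, and limma-voom 0 and 1. The gene called was PEX6, an ATPase of peroxisomal protein import, at 26.5 ± 1.97 CPM in WT against 14.3 ± 3.43 CPM in the knockout-labelled group (log2 fold change -0.89 ± 0.21, edgeR adjusted p = 0.0316; -0.70 without replicate 1). It did not pass when any 1 WT library was left out (edgeR adjusted p from 0.113 to 0.139) or without knockout-labelled replicate 3 (0.0594). Those fits called 3.54% to 3.69% and 6.48% of all tested genes. Over all 6 libraries the genes on either side of CUL9 were not called. SRF, the serum response transcription factor, which ends just before CUL9 starts, was at 105, 102 and 98.5 CPM in WT and at 71.6, 119.6 and 112 CPM in the knockout-labelled replicates 1 to 3 (log2 fold change -0.013 ± 0.21). Without replicate 1 SRF rose by 0.19 (edgeR adjusted p = 0.0315). DNPH1, a nucleotide hydrolase on its other side, was at 78.9, 75.2 and 71.4 CPM and at 13.98, 88.7 and 58.5 CPM (-0.48 ± 0.55, and -0.024 without replicate 1). The receptor-like kinase gene PTK7, between CUL7 and SRF, was at 185 ± 8.04 and 114 ± 43.8 CPM (-0.69 ± 0.29, edgeR adjusted p = 0.145), and without replicate 1 it fell by 0.40 (edgeR adjusted p = 3.37e-05). Without knockout-labelled replicate 1, 3 of 17 tested neighbours were called higher and 4 lower, in a fit that called 22.3% of all genes higher and 21.7% lower.

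**Figure D4:**
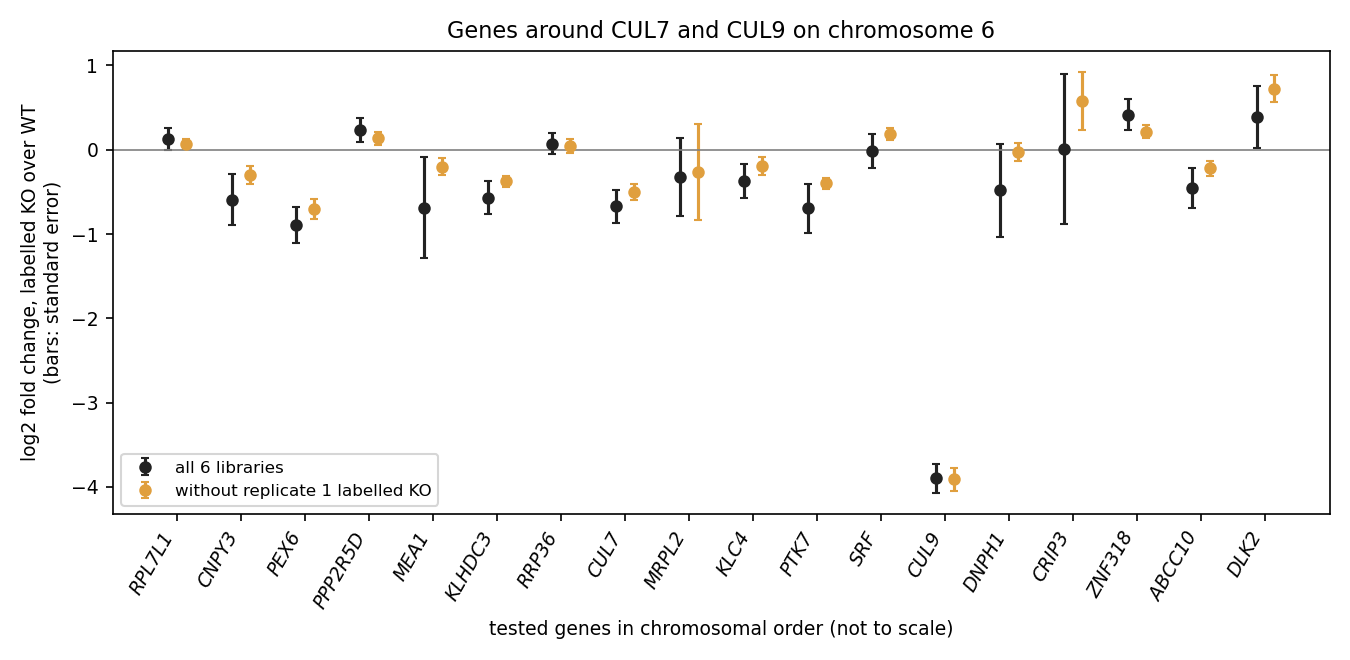
Log2 fold change, knockout-labelled over WT, with standard errors (vertical axis) for the tested protein-coding genes around CUL7 and CUL9 in chromosomal order (horizontal axis, not to scale), over all 6 libraries in black and without knockout-labelled replicate 1 in yellow. CUL9 is at -3.90, while SRF and DNPH1 on either side of it are at -0.013 and -0.48 over all libraries.

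Partners and reported substrates of CUL7 and CUL9 were read next, at the level of their mRNA. Of 8 genes, 2 rose, 0 fell and 6 did not pass edgeR (8.64% and 6.5% of all tested genes were called higher and lower); DESeq2 and limma-voom also gave 2 and 0. BIRC5 (survivin), an inhibitor of apoptosis and a reported substrate of CUL9, was at 247, 234 and 235 CPM in WT and at 412, 434 and 414 CPM in the knockout-labelled replicates 1 to 3. All 3 knockout-labelled libraries lay well above WT and close to each other. BIRC5 rose by 0.81 ± 0.12 on the log2 scale (edgeR adjusted p = 0.00601), and by 0.83 without replicate 1. It passed edgeR in 3 of the 6 fits that left out 1 library and in none of those that left out a WT library. Fits without a WT library called 3.54% to 3.69% of all tested genes, and the fit without knockout-labelled replicate 1 called 44%. IRS1, the insulin receptor substrate and a reported target of CUL7, was at 8.71, 8.55 and 10.5 CPM in WT and at 12.6, 17.7 and 15.99 CPM in the knockout-labelled replicates 1 to 3. It rose by 0.74 ± 0.20 (edgeR adjusted p = 0.0466), and passed in 1 of the 6 fits that left out 1 library, the fit without knockout-labelled replicate 1.

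The 3M subunits OBSL1 and CCDC8 were at 188 ± 6.94 and 43.5 ± 3.17 CPM in WT and at 149 ± 46.6 and 42.4 ± 19.0 CPM in the knockout-labelled libraries, with log2 fold changes of -0.34 ± 0.24 and -0.037 ± 0.33. OBSL1 was at -0.092 without knockout-labelled replicate 1, and CCDC8 then changed sign and rose by 0.28 (edgeR adjusted p = 0.0263). FBXW8, the F-box receptor of CUL7, was at 25.7 ± 1.27 and 25.5 ± 0.608 CPM (log2 fold change -0.0074, interval -0.32 to 0.30). APEX1, a DNA repair nuclease, was at 162 ± 2.45 and 142 ± 37.6 CPM (-0.19 ± 0.21, and 0.024 without replicate 1), and CYCS, cytochrome c, at 214 ± 3.39 and 205 ± 8.30 CPM (-0.058 ± 0.12).

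Over 202 tested genes in 10 lists of the wider cullin pathway, 18 rose and 13 fell by edgeR, together 15.3% of them, near the 15.1% called among all tested genes. The median log2 fold change was 0.011, against 0.0055 over all genes. Each of these 31 genes kept its call without knockout-labelled replicate 1, and FBXL16 alone kept it whichever of the 6 libraries was left out. With WT replicates 1, 2 and 3 left out, 2, 0 and 0 genes were called higher and 1, 2 and 1 lower. Those fits called 3.54% to 3.69% of all tested genes, against 44% in the fit without knockout-labelled replicate 1. Calls kept or lost here thus moved with those of the whole table.

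Genes of the machinery that activates and recycles cullins are given beside the 15.1% of all tested genes called by edgeR and 24.1% by DESeq2. No share of all genes is given for the unadjusted counts. The lists are short, so a low count does not set them apart. Of 11 tested genes for NEDD8 attachment and removal, 0 rose and 0 fell by edgeR (0 higher and 1 lower before adjustment, at p under 0.05; 0 and 1 by DESeq2 and 0 and 0 by limma-voom after it), with a median log2 fold change of 0.037. Without knockout-labelled replicate 1, 0 of the 11 were called higher and 3 lower, and the median turned to -0.19. That fit called 22.3% of all tested genes higher and 21.7% lower. NEDD8 itself had 1 to 9 counts per library and was not tested. Of the 12 COP9 signalosome and CAND genes, 1 rose and 0 fell by edgeR (2 and 0 by DESeq2, and 2 and 0 before adjustment at p under 0.05). It was GPS1, the first signalosome subunit, at 168 ± 6.29 CPM in WT against 265 ± 28.1 CPM in the knockout-labelled libraries (0.65 ± 0.13, edgeR adjusted p = 0.0207). Of the 4 adaptors 0 were called by edgeR, DESeq2 or limma-voom, nor by edgeR before adjustment at p under 0.05: SKP1 of the CUL1 ligases had a log2 fold change of -0.19 ± 0.14, ELOB and ELOC of the CUL2 and CUL5 ligases -0.22 ± 0.26 and -0.32 ± 0.14, and DDB1 of the CUL4 ligases 0.16 ± 0.16. Without knockout-labelled replicate 1 ELOC fell by 0.37 (edgeR adjusted p = 0.00124), while SKP1 was at -0.095, ELOB at 0.015 and DDB1 at -0.0062. ANAPC2 and ANAPC11, the cullin-like and RING subunits of the anaphase-promoting complex, were at -0.36 ± 0.24 and 0.32 ± 0.30 and did not pass. ANAPC2 was at -0.12 without knockout-labelled replicate 1, and ANAPC11 then rose by 0.62 (edgeR adjusted p = 2.45e-07).

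Receptors were called in both directions, and the share called is given beside the 8.64% higher and 6.5% lower, together 15.1%, of all tested genes. Of 55 tested F-box genes of the CUL1 ligases, 2 rose and 5 fell, together 12.7%. FBXL16 was at 14.1, 17.05 and 13.8 CPM in WT and at 0.0740, 1.09 and 1.08 CPM in the knockout-labelled replicates 1 to 3, and fell by 4.26 ± 0.56 on the log2 scale (edgeR adjusted p = 0.00434). FBXO41, a neuronal F-box gene, fell by 1.64 ± 0.28 (edgeR adjusted p = 0.0107). FBXW7, the receptor that targets cyclin E and MYC, was at 19.3 ± 1.23 and 34.8 ± 3.90 CPM and rose by 0.85 ± 0.15 (edgeR adjusted p = 0.0131), and FBXO4 rose by 0.83 ± 0.22.

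Of 38 tested BTB receptors of CUL3, 7 rose and 1 fell, together 21.1% (15.1% of all tested genes), and their median log2 fold change was 0.17. KLHL2, a kelch receptor of WNK kinases, was at 11.8, 11.3 and 9.62 CPM in WT and at 21.5, 22.6 and 21.8 CPM in the knockout-labelled replicates 1 to 3. It rose by 1.01 ± 0.16 (edgeR adjusted p = 0.00811). IVNS1ABP rose by 0.83 ± 0.18 and KLHL22 fell by 0.69 ± 0.14. Of 21 tested receptors of CUL4, 3 rose and 2 fell, together 23.8%. CRBN, the receptor bound by thalidomide, rose by 0.91 ± 0.20 and DCAF1 by 0.88 ± 0.20, while WDTC1 fell by 0.78 ± 0.14 and DCAF8 by 0.51 ± 0.13. Of 38 tested elongin-linked receptors of CUL2 and CUL5, 2 rose and 1 fell, together 7.89%, below the 15.1% of all tested genes. WSB1 was at 225 ± 7.85 and 119 ± 15.1 CPM and fell by 0.92 ± 0.14 (edgeR adjusted p = 0.00766). SOCS2, a brake on growth hormone signalling, rose by 0.66 ± 0.18, and ASB11 rose from 0.0829 ± 0.0721 CPM to 1.09 ± 0.284 CPM, at low counts.

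CUL9 is also a RING-between-RING ligase, a class that passes ubiquitin through a catalytic cysteine. Of 13 other tested genes of this list, which includes their E2 enzyme UBE2L3, 1 rose and 4 fell, against 8.64% and 6.5% of all tested genes. RNF144B was at 2.86, 2.32 and 2.70 CPM in WT and at 11.7, 7.04 and 7.755 CPM in the knockout-labelled replicates 1 to 3, and rose by 1.75 ± 0.27 (edgeR adjusted p = 0.008055). RNF144A was at 36.2 ± 3.34 and 19.9 ± 2.41 CPM and fell by 0.87 ± 0.16 (edgeR adjusted p = 0.0142).

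**Figure D5:**
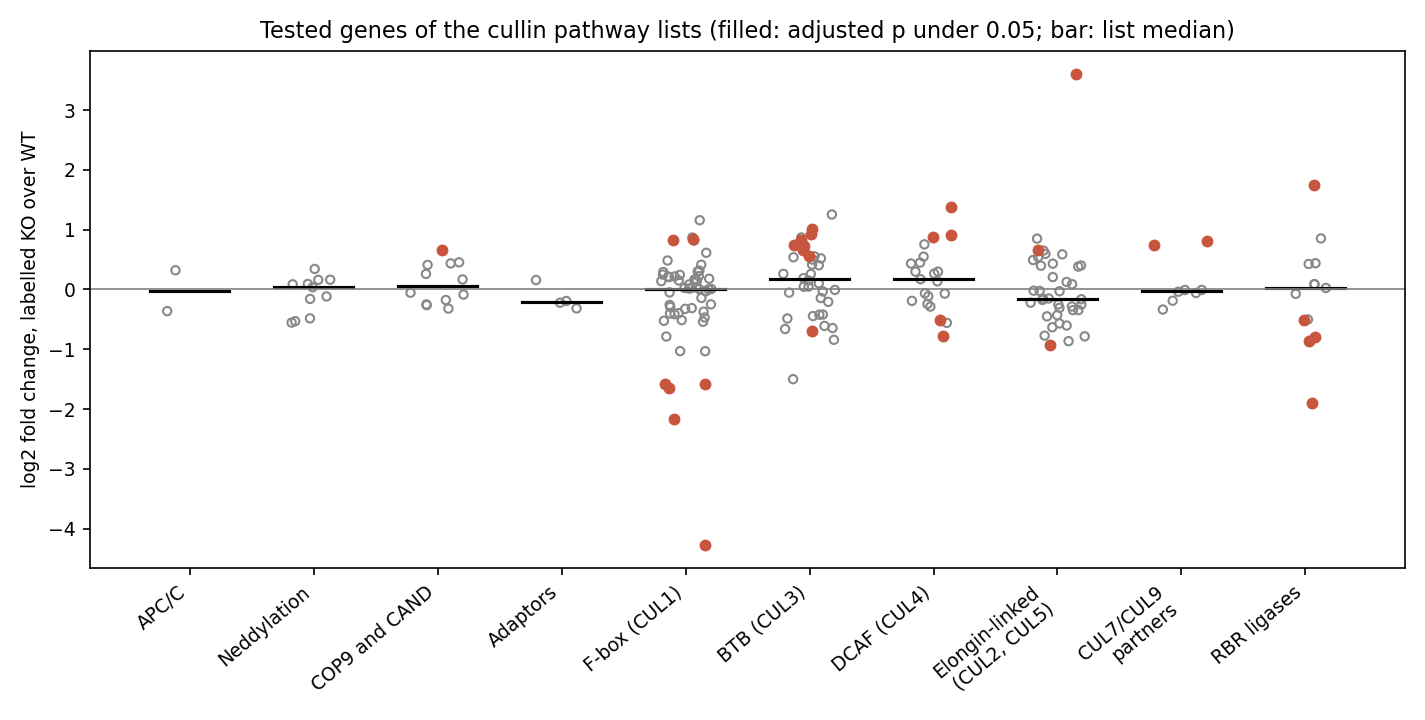
Log2 fold change, knockout-labelled over WT (vertical axis), of each tested gene of 10 cullin pathway lists (horizontal axis), with filled points for genes with an edgeR adjusted p under 0.05 and a bar at each list's median. Medians lie between -0.21 (adaptors) and 0.17, and the lowest point is FBXL16 at -4.26.

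The 5 protein-coding genes named here had the profiles most like that of CUL9 over the 6 libraries, by Euclidean distance between centred log2 CPM values among 11713 genes with a mean of at least 2 CPM. The nearest was SNAI2, a transcription factor of epithelial-mesenchymal transition, at a distance of 0.43, with 168 ± 8.74 CPM in WT against 13.2 ± 1.75 CPM in the knockout-labelled libraries. SPARC, a matrix glycoprotein (0.62), went from 72.9 ± 2.52 to 4.91 ± 0.984 CPM and SLC2A3, a glucose transporter (0.67), from 74.8 ± 4.42 to 5.52 ± 1.19 CPM. CACNG7 (0.70) and PTGIS (0.74) were lower in level, at 5.41 ± 0.571 and 7.54 ± 0.484 CPM in WT. In the knockout-labelled libraries they were near the floor, at 0.340 ± 0.183 and 0.660 ± 0.105 CPM. Counts there were 4, 3 and 9 for CACNG7 and 8, 10 and 13 for PTGIS, so both passed the 2 CPM minimum through WT. Means of the 5 genes in WT were 11.4-fold (PTGIS) to 15.9-fold (CACNG7) above those in the knockout-labelled libraries. Both ends of this range rest on those low counts. Folds near that of CUL9 follow from choosing genes by their distance to it. The 5 genes lie on chromosomes 8, 5, 12, 19 and 20.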

How the data were processed

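The authors deposited whole-number counts per gene, not normalised, for 6 libraries. Per the submitters' processing notes the tools were HISAT2 2.2.1, HTSeq 0.12.4, SAMtools 1.3.1 and DESeq2, with GRCh38; counting options are not stated there. Reads in no feature (8.75% to 15.9%) and ambiguous reads (9.74% to 12.5%) were left out. Deposited mitochondrial coverage was not used here. The test was edgeR 4.0.16 under R 4.3.3 (TMM, filterByExpr defaults, quasi-likelihood F test on group, Benjamini-Hochberg adjustment over 17452 genes at 0.05). Intervals are unadjusted 95% intervals from the same fit; log2 CPM used a prior count of 2. Names, spans and promoter windows came from RefSeq tables of GRCh38.p14; 86.5% of tested genes had a span. Alternatives were DESeq2 1.42.0, limma-voom (limma 3.58.1), RLE and upper-quartile scaling, no count filter, a fit with replicate as block, and fits without each library in turn. The edgeR step was run on simulated counts in which no library stood apart, so that check does not cover knockout-labelled replicate 1. Members, lists and tests were chosen with earlier results of these data known. Named genes are all members, adaptors and partners, up to 2 called genes per direction of other lists, genes within 250 kb of CUL7 or CUL9 and the 5 nearest profiles. PTK7, SRF and DNPH1 were picked from the neighbours for their position. Results for some genes of these lists are not reported here. Levels were not ranked between genes, since no transcript lengths were used here.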

Additional observations from a re-analysis of the deposited data

How the results depend on the processing

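The log2 fold change of CUL9 stayed between -3.98 and -3.81 with each library left out and between -3.94 and -3.89 under the 6 other settings, which included DESeq2, limma-voom and 2 other scalings. CUL7 stayed below 0 under each setting, between -0.78 and -0.50 with a library left out (edgeR adjusted p from 0.000141 to 0.217); it passed with DESeq2 (-0.66, adjusted p = 0.0174), with no count filter (-0.71, edgeR adjusted p = 0.0381) and without knockout-labelled replicate 1. The count of other members called lower was 1 with DESeq2 and 1 with no count filter, and 0 to 4 with a library left out; that of members called higher was 0 to 1 with a library left out. With a library left out CUL2 ranged from -0.12 to 0.29, CUL5 from -0.24 to 0.15 and RNF7 from -0.14 to 0.11. CUL2 turned to -0.12 without knockout-labelled replicate 1. CUL5 turned to -0.019 with limma-voom, -0.031 with no count filter, -0.0076 without WT replicate 1 and -0.24 without knockout-labelled replicate 1. RNF7 turned to 0.0058, 0.011 and 0.11 without WT replicate 2, WT replicate 3 and knockout-labelled replicate 1. Pathway genes, here 212 with the 10 tested genes of a list not reported here, were called higher in 19 and lower in 13 cases over all libraries; those called higher numbered 33 with DESeq2 and 0 to 47 with a library left out (5 without knockout-labelled replicate 3), and those called lower 21 and 1 to 49 (5 without that replicate). These counts moved with the share of all tested genes called, which was 15.1% in the main fit and 24.1% with DESeq2. That share fell to between 3.54% and 3.69% without 1 WT library and rose to 44% without knockout-labelled replicate 1. Without knockout-labelled replicates 2 and 3 it was 14.9% and 6.48%. The cause was not tested. Deviations within the groups had r of -0.059, -0.029 and 0.0022 between same-numbered WT and knockout-labelled libraries. Between libraries of different number r was -0.062 to 0.059. Each group has 3 libraries, and knockout-labelled replicate 1 stood apart from its partners. Whether equal numbers mark a pairing was not tested beyond these values. With the replicate block 3 pathway genes were called higher and 3 lower, CUL5 was at -0.017, and 5.55% of all genes were called. The planned order of levels per length was not run.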
